A study of Caenorhabditis elegans with 2 samples.

Results

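The 9 genes described here encode subunits of Mediator in Caenorhabditis elegans: mdt-29, mdt-15, sur-2 and lin-25 of the tail module, dpy-22, let-19, cdk-8 and cic-1 of the kinase module, and mdt-26. They were chosen by name, as 9 of the 19973 nuclear protein-coding genes of the annotation, and the question put to the data was whether MDT-29 occupied the genes of its own complex. Binding of MDT-29 was measured by ChIP-seq, the sequencing of DNA precipitated together with a protein, in whole L4 larvae aged 48 hours, from worms synchronised by bleaching and starvation at the L1 stage. There was 1 group with 2 biological replicates, both of strain RJP4521, in which CRISPR inserted a tag at the mdt-29 locus itself, so every larva that gave chromatin carried the tagged gene. The labels name the tag as Degron::GFP in the strain and as eGFP in the sample text, and the precipitation used an antibody against GFP. No untagged worms or input were used here, and with 1 group there was no comparison between conditions. Because whole larvae were used, a peak does not say in which tissue MDT-29 was bound.

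Mediator is a large complex that links transcription factors on DNA with RNA polymerase II. Its tail module is the part that many activators contact, and its kinase module, made of a cyclin-dependent kinase, a cyclin and a pair of large scaffold proteins, attaches reversibly to the rest. In C. elegans the tail protein MDT-15 works with the lipid regulators SBP-1 and NHR-49, SUR-2 and LIN-25 act downstream of Ras signalling in vulval development, and DPY-22 and LET-19 act in cell fate choices that involve Wnt signalling. MED26, the mammalian counterpart of MDT-26, joins forms of Mediator that lack the kinase module and contacts elongation factors.

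The authors deposited 8 lists of peaks: a main and a conservative list made from both samples together and 1 list for each replicate, each in a thresholded and a ranked form. Thresholded lists held peaks with a score of at least 830, which stands for a global irreproducible discovery rate (IDR, the expected share of peaks whose ranking does not repeat) of 0.01. Ranked lists also held the weak peaks, 98568 in the main list against 1705 in its thresholded form. A peak was counted for a gene when its summit lay inside the gene or within 1000 bp of the 5' end of one of its transcripts, a stretch called the gene's region. The signal of a peak is the authors' own measure of its strength, in units whose scaling between samples is unknown. Sequencing depth is unknown too, so an absent peak means only that none was listed.

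Of the 9 genes, 1 had a thresholded peak, mdt-26. It had 2 such peaks, one at its 5' end and a stronger one in an intron, and the intron peak was thresholded in replicate 1, in replicate 2 and in both lists made from the pair. The other 8, mdt-29 itself among them, had none in any of the thresholded lists. The count was the same in all 4 thresholded lists, while the share of all protein-coding genes with such a peak was 6.43% in the main list, 6.39% in the conservative list, 3.06% in replicate 1 and 4.21% in replicate 2. Thus 1 of 9 members stood beside 6.43% of all genes, and with so few genes 1 peak-bearing member is near that background. The members' regions were also longer, with a median of 7.9 kb and a range of 4.36 to 13.07 kb, against a median of 3.04 kb over all genes. Among the 5927 genes with a region of 4 to 14 kb, 8.86% had a thresholded main peak. Within 500 bp of a 5' end the count of members was again 1, beside 3.57% of all genes.

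The sequences under the mdt-26 peaks are given first, because they carry the only thresholded signal among these genes. They are the plus strand of the RefSeq genome, WBcel235 (ce11), which is also the strand of the gene (WBGene00016115, chrII:5661181-5665243). The peak at the 5' end, chrII:5661073-5661392, is given in 2 pieces on either side of the short untranslated stretch, first chrII:5661073-5661180, with the letters TATAAA in capitals, and then chrII:5661194-5661392, with coding bases in capitals.
5' end peak, promoter piece: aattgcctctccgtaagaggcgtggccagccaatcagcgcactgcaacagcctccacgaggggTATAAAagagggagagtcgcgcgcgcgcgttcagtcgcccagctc
5' end peak, coding piece: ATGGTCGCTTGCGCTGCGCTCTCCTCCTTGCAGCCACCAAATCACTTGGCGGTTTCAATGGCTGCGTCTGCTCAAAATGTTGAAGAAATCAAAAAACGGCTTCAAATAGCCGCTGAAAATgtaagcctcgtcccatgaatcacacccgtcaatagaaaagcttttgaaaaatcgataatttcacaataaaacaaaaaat

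The intron peak, chrII:5661624-5661948, has its summit in the intron that follows the second coding exon. The 300 bases of chrII:5661683-5661982 take in that exon, whose coding bases are in capitals, and the summit at position 5661833.
Intron peak: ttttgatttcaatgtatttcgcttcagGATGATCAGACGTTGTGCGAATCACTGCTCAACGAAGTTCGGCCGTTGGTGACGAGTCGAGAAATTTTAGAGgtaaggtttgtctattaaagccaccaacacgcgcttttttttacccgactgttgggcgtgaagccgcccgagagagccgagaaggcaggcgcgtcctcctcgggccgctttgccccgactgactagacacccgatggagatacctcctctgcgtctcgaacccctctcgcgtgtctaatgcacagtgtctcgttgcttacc

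At the intron peak, 639 bp downstream of the nearest annotated 5' end, signal was 123.8 in replicate 1 and 143.9 in replicate 2, a mean of 133.8 ± 14.3 (SD, n = 2). Both samples were high there, and the peak stood at position 96 of 777 by signal in the thresholded replicate 1 list and at 97 of 1050 in that of replicate 2. In the main list its signal was 258.8, position 103 of 1705, where the median thresholded peak had 99.5, and its global IDR was 1.208e-05. Summits of the single-sample peaks lay at 621 bp in replicate 1 and 600 bp in replicate 2. The single-sample peaks were narrow, 73 bp in replicate 1 and 174 bp in replicate 2, where the median peak of those lists was 290 and 284 bp wide. No other protein-coding gene had this summit in its region, though the 5' end of ift-43 lay 1047 bp from it, just past the 1000 bp limit.

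At the 5' end peak, with its summit 39 bp downstream of the nearer annotated 5' end and in the first coding exon, signal was 46.9 in replicate 1 and 72.4 in replicate 2, a mean of 59.6 ± 18.03 (SD, n = 2). Replicate 1 was the lower sample: its peak there scored 493 and was not in its thresholded list, whereas that of replicate 2 scored 1000. In the main list this peak had a signal of 115.9, position 607 of 1705, and a global IDR of 0.001144. Its summit lay 447 bp from the 5' end of ift-43, which the annotation places upstream of mdt-26, so the peak cannot be assigned to mdt-26 alone. In each sample the intron peak had the higher signal of the pair. With a global IDR of 0.001 as the limit, the intron peak alone was left of the mdt-26 peaks in the main ranked list, whereas in the conservative ranked list the 5' end peak, at 0.0007279, passed too. Beyond these, the main ranked list held 5 weaker peaks in the mdt-26 region, 7 in all.

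**Figure D1:**
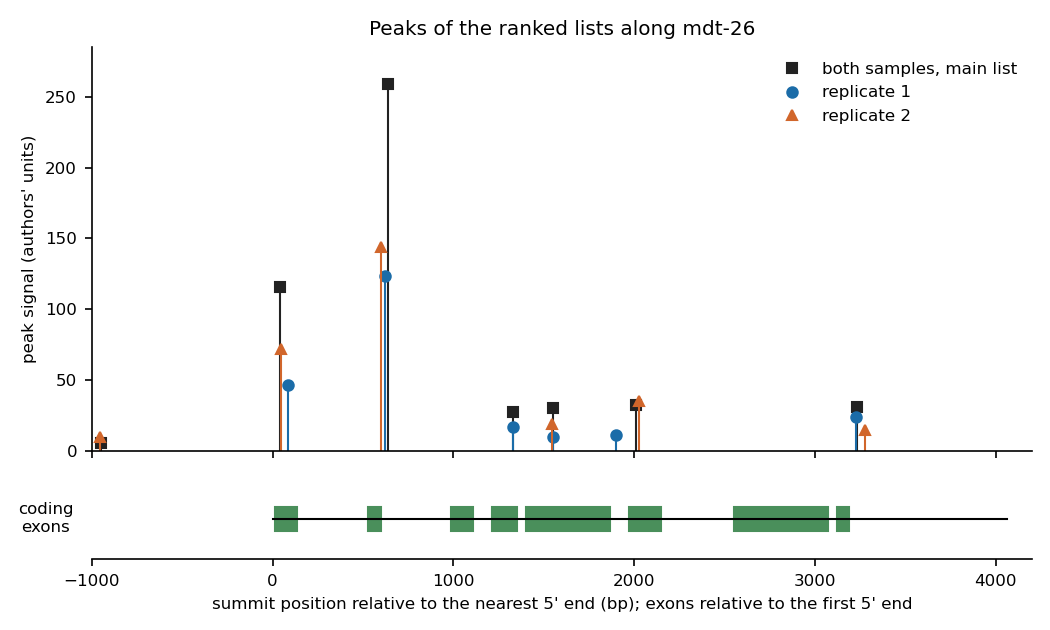
Summits of the ranked peaks along mdt-26 (x axis, bp from the nearest 5' end) and their signal (y axis, the authors' units) in the main list, replicate 1 and replicate 2, with coding exons drawn to scale below. Exons are placed from the first 5' end. The peaks at 39 and 639 bp stand above the other peaks of the gene in every list drawn.

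All 30-base words under the mdt-26 peaks, 291 of 291 at the 5' end and 296 of 296 at the intron, occurred once in the genome. Neither stretch thus shares an exact word of that length with another place, while copies with differences were not looked for. No annotated noncoding gene lay within 1000 bp of the intron summit or of the 5' end summit, the nearest being F59E12.14 at 12.14 and 11.54 kb. GC content from 150 bp before to 150 bp after the summit was 53.2% for the intron peak and 51.2% for the 5' end peak, against a median of 41.5% over the 1705 main peaks. Of those main peaks, 4.69% and 8.21% had a higher GC content than the intron and the 5' end peak.

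Short motifs were looked for within 150 bp of each summit, on both strands. The 5' end peak held TATAAA on the gene's strand, starting 45 bases before the first annotated 5' end, at chrII:5661136-5661141. TATAAA was held by 22.2% of all main peaks. The intron peak held GAGAGAG at chrII:5661851-5661857 and GGGCGG on the opposite strand at chrII:5661845-5661850, next to each other and just past the summit; 14.4% and 11.7% of all main peaks held these motifs. It also held GGTTCGA on the opposite strand, at chrII:5661937-5661943, a motif looked for only after the sequence had been seen, and known as the core of the B box of RNA polymerase III promoters. GGTTCGA was held by 11.8% of all main peaks and by 3.96% of the 1489 away from tRNA genes. Neither mdt-26 peak held GAANNTTC, a pair of heat shock element units, CACGTG or TGATAA, which 20.2%, 14.6% and 25.4% of all main peaks held, or the heat shock element of 3 units, which 6.74% held. These matches describe letters, not bound factors.

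Among the tail module genes, mdt-29 (WBGene00007025, chrIII:13773176-13778908) encodes the precipitated protein itself. No peak was listed in its region in the main ranked list, nor further on along chromosome III. The last main summit before the region lay 1439 bp from it. Replicate 2 did list a summit past the region, 567 bp from it. Among genes with regions of 6 to 7 kb, as mdt-29 has at 6.73 kb, 13.2% had no ranked main peak (112 of 848). The conservative ranked list had 7 peaks in the mdt-29 region. The strongest lay at 4755 bp in a coding exon, with a signal of 37.97 and a global IDR of 0.0448. Replicate 2 had a peak there with a signal of 36.3 and replicate 1 had none listed, so the single-sample lists held this site in 1 sample only. Replicate 1 listed 2 peaks in the region, none above 16.2, and replicate 2 listed 3. The thresholded main peak nearest to an mdt-29 5' end was 9057 bp upstream of it.

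The gene of MDT-15 (WBGene00007016, chrIII:5828557-5833751), the tail subunit of lipid and stress responses, came next after mdt-26 in signal in the main list and in replicate 1; in replicate 2, mdt-29 was above it. Its leading peak lay in a coding exon at 2454 bp, with signals of 35.8 in replicate 1 and 28.0 in replicate 2, a mean of 31.9 ± 5.51 (SD, n = 2), and 66.8 in the main list. A second coding exon peak at 1810 bp had 36.3 in replicate 1, 16.6 in replicate 2 and 48.3 in the main list. Both sites were listed in both samples, and the samples were closer at the first than at the second. The strongest replicate 2 peak of mdt-15 lay elsewhere, at 4882 bp, with 32.8. None of the 13 ranked main peaks of mdt-15 reached the score minimum of 830; the highest score was 422. The leading site had a score of 354 in the main list and 554, a global IDR of 0.046, in the conservative list.

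SUR-2, the counterpart of mammalian MED23, and LIN-25, the counterpart of MED24, act together in worms. The sur-2 gene (WBGene00006349, chrI:14777137-14787804) had 10 ranked main peaks, the strongest in an intron at 1594 bp, with signals of 12.8 in replicate 1, 19.6 in replicate 2 and 44.2 in the main list. The peak at 1594 bp scored 66 in that list, and the highest score of a sur-2 peak was 167, at 3208 bp. In the single samples other sur-2 sites were the strongest, at 8618 bp in replicate 1 (18.2) and 3174 bp in replicate 2 (27.3). By contrast lin-25 (WBGene00003011, chrV:12649925-12658714) had no peak in any of the 4 ranked lists, and it was the 1 member of which that was true. The stretch around lin-25 without a listed summit was 22.3 kb in the main, conservative and replicate 1 lists and 21.7 kb in the replicate 2 list. Such stretches were common: 1458 of over 5 kb, 26.96 Mb in all, in the main ranked list, 2095 in replicate 1 and 1817 in replicate 2. Among genes with regions of 9 to 11 kb, as lin-25 has at 9.79 kb, 8.88% had no ranked main peak (46 of 518). Why the lists leave such stretches empty was not tested.

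In the kinase module, the genes of its large scaffold proteins, dpy-22 and let-19, which encode the counterparts of MED12 and MED13, had weak peaks spread along their coding exons. The dpy-22 gene (WBGene00001081, chrX:9810202-9822273) had 18 ranked main peaks, with the strongest at 8051 bp, far from the 5' end. Signal there was 28.6 in replicate 1, 25.4 in replicate 2, a mean of 27.01 ± 2.25 (SD, n = 2), and 62.2 in the main list, with a score of 410. The samples nearly coincided at this site, and their summits were at 8023 and 8055 bp. The strongest replicate 2 peak of dpy-22 lay elsewhere, at 5264 bp with 31.4, where replicate 1 listed none. For let-19 (WBGene00002295, chrII:8770975-8782020), the strongest of 12 ranked main peaks lay at 4163 bp, with 43.5 in the main list and 30.2 in replicate 2. A replicate 1 peak with 17.02 overlapped it, but its summit was 244 bp away and nearer to another main peak, at 4393 bp.

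The kinase gene cdk-8 (WBGene00000409, chrI:8702466-8705825) had no peak in its region in the main ranked list, where it lay in an empty stretch of 30.1 kb. Other lists did have peaks there: 3 in the conservative list, 5 in replicate 1 and 3 in replicate 2. The conservative list's strongest, 803 bp upstream, had a signal of 37.9 and also lay in the region of tlf-1, its neighbour. A site 283 bp upstream, in the tlf-1 region too, had 12.7 in replicate 1 and 11.5 in replicate 2, a mean of 12.1 ± 0.841 (SD, n = 2). Signal upstream of cdk-8 was thus listed in both samples but not in the main list, and it cannot be assigned to cdk-8 alone. Inside the gene, replicate 1 listed a peak of 24.5 in a coding exon at 3014 bp, its strongest in the cdk-8 region. It also listed intron peaks at 2075 bp (15.7) and 1462 bp (14.9). Replicate 2 listed none inside cdk-8, so those sites were held by 1 sample only. The cyclin C gene cic-1 (WBGene00000506, chrIII:2394325-2401221), whose product pairs with CDK-8, had 10 ranked main peaks, the strongest in an intron at 5504 bp with a signal of 37.9. The single-sample summits nearest to it were at 5439 bp in replicate 1, with 5.17, and at 5495 bp in replicate 2, with 10.9. A neighbouring main peak lay at 5720 bp, with 35.5. The highest single-sample peaks overlapping the main peaks at 5504 and 5720 bp were the same, 13.5 in replicate 1 and 22.1 in replicate 2. Scores of the cic-1 peaks stayed at or below 171 in the main list.

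**Figure D2:**
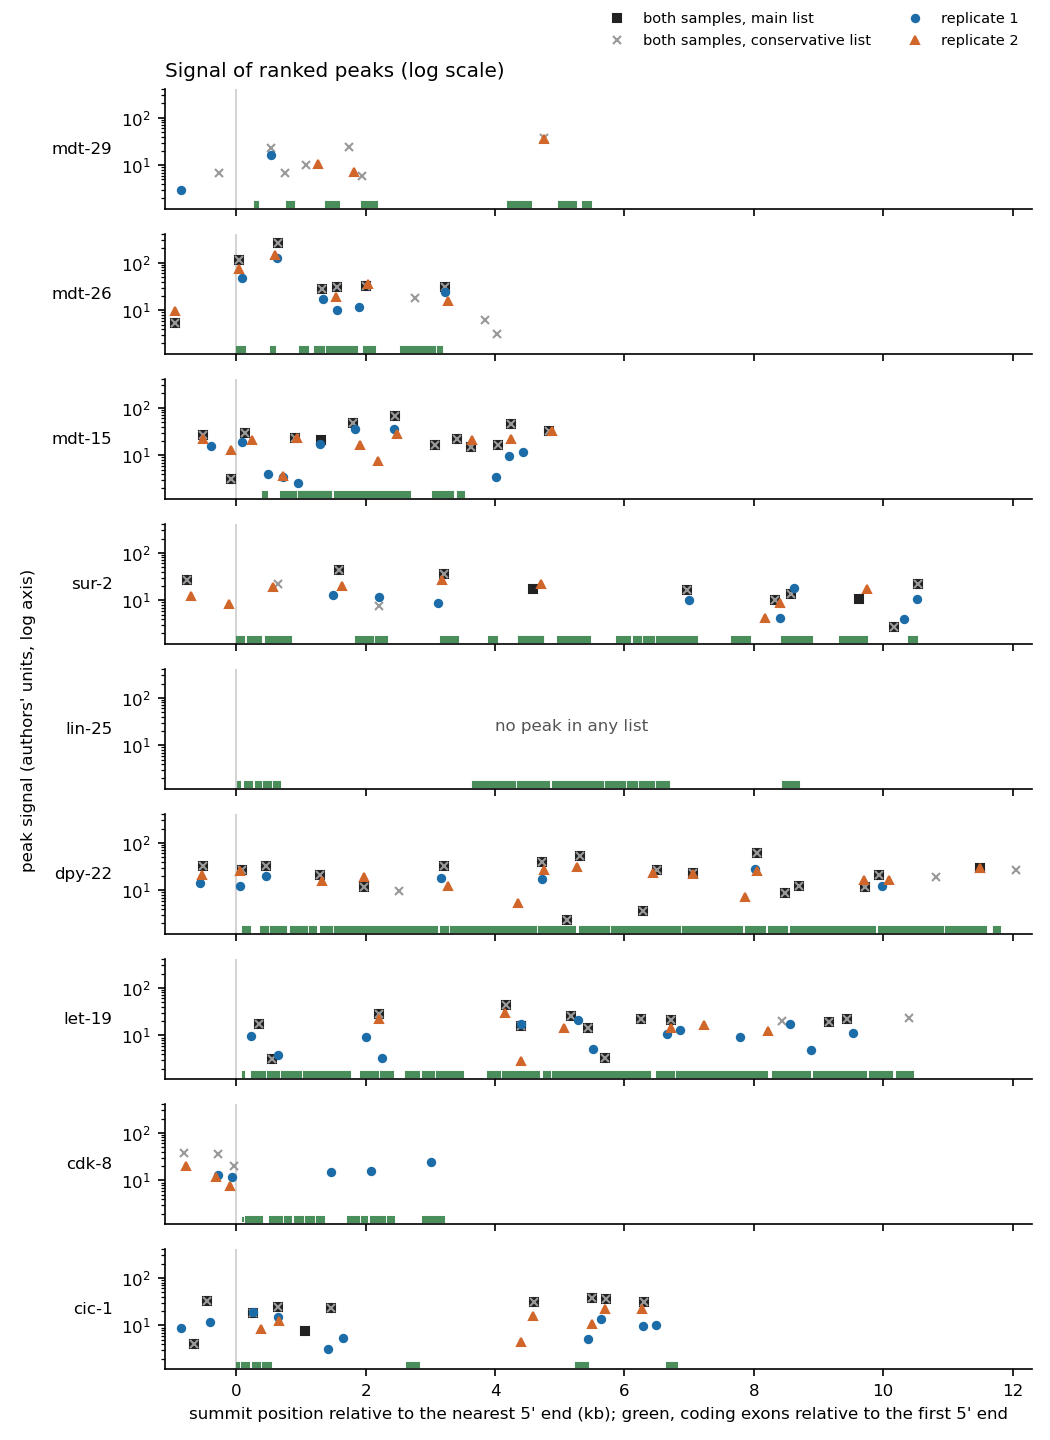
Every ranked peak in the region of each member, by summit position (x axis, kb from the nearest 5' end) and signal (y axis, the authors' units, log axis), in the main, conservative, replicate 1 and replicate 2 lists, with coding exons in green. Exons are placed from the first 5' end, so peaks can appear shifted against them. The mdt-29 peak at 4755 bp is drawn outside the coding exon in which it lies. The mdt-26 intron peak is the highest of all peaks drawn in each list, peaks of dpy-22, let-19 and sur-2 are spread along the gene, and lin-25 has none.

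Counting any ranked peak, 6 of the 9 genes had one in the main list and 8 of 9 in the conservative, replicate 1 and replicate 2 lists. The share of all genes was 79.7% in the main, 79.8% in the conservative, 79.5% in the replicate 1 and 80.2% in the replicate 2 list, so a ranked peak is the usual state of a gene. At a global IDR of 0.05 the main ranked list gave 1 member, mdt-26, and the conservative ranked list gave 3, mdt-15, mdt-26 and mdt-29, where the background was 11.5% in both lists. Of the members' 6 leading sites in the main list, all 6 lay inside the gene, 5 lay over 1000 bp from a 5' end and 0 within 500 bp. Among the 5169 genes that had a ranked main peak and a region of 4 to 14 kb, the leading site was inside the gene in 76.4%, over 1000 bp away in 51.1% and within 500 bp in 28.9%. Of the 6, mdt-26 was the one with its leading site within 1000 bp.

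Ranked by the highest main signal in the region among the 19973 genes, mdt-26 stood at 90, mdt-15 at 1850, dpy-22 at 2292, sur-2 at 6563, let-19 at 6794 and cic-1 at 9051. In other terms 0.446% of genes had a higher value than mdt-26, 9.26% than mdt-15, 11.5% than dpy-22 and 45.3% than cic-1. The median over all genes was 35.8, and 20.3% of genes had no ranked peak, as mdt-29, lin-25 and cdk-8 had none. In the main list all 6 members with a peak lay above that median, cic-1 narrowly. That median counts genes without a ranked peak as 0, while these 6 were taken because they had one. Their standing above it is therefore not a result about them. In the single samples sur-2 was below the median in replicate 1 (18.2 against 19.05), as was mdt-29 (16.2), and cic-1 (22.1) and cdk-8 (20.4) were below it in replicate 2 (22.3). With 1 sample the rank of mdt-26 was 86 in replicate 1 and 90 in replicate 2, but others moved by over 1.5 times in at least 1 sample: mdt-15 stood at 1551 and 3840, dpy-22 at 3504 and 4460, sur-2 at 10636 and 6643. Without a peak in the main list, mdt-29 stood at 12125 in replicate 1 and 2724 in replicate 2, and cdk-8 at 5740 and 11366. Since longer regions hold more ranked peaks (Spearman's rho 0.298 between region length and highest signal, across genes, which are not independent), these ranks are not free of length, and among the 5927 genes with regions of 4 to 14 kb the median was 43.1. By that mark sur-2 and let-19 were just above the median and cic-1 was below it. Here too genes without a ranked main peak, 12.8% of the 5927, counted as 0.

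**Figure D3:**
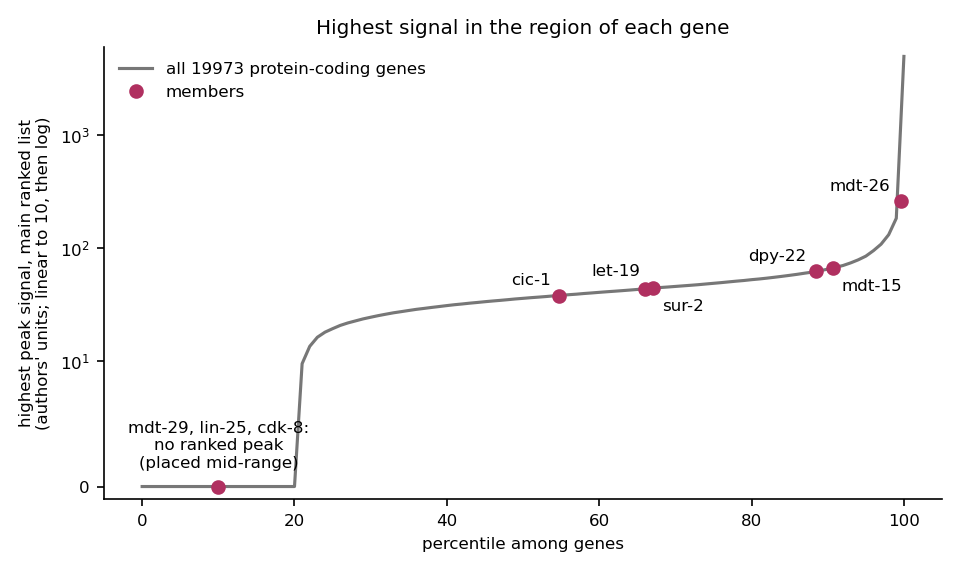
Highest main ranked signal in the region (y axis, the authors' units, linear to 10 and then log) against percentile among genes (x axis) for all 19973 protein-coding genes, with the members marked. Members range from no listed peak (mdt-29, lin-25 and cdk-8) through values between 37.9 and 66.8 units to mdt-26 at 258.8.

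Close to the 5' end the same order held only at its top. Within 500 bp the highest main signal was 115.9 for mdt-26, position 300 among genes, then 33.0 for dpy-22, 32.3 for cic-1, 29.3 for mdt-15 and 17.7 for let-19. The cic-1 peak also lay in the region of strm-1, and the mdt-15 peak in those of R12B2.13 and R12B2.6. Over all genes the median was 21.8. In the single samples these 5' end values were 46.9 in replicate 1 and 72.4 in replicate 2 for mdt-26, and 19.04 and 20.7 for mdt-15. For dpy-22 they were 20.5 and 25.3. For cic-1 they were 19.4 and 8.44, the second below the replicate 2 median of 12.96 and at another site, 380 bp inside the gene. For let-19, replicate 1 had 9.62, below its median of 9.86, and replicate 2 listed no peak there. No main ranked peak lay within 500 bp of a 5' end of mdt-29, sur-2, lin-25 or cdk-8, as was so for 33.3% of all genes.

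**Figure D4:**
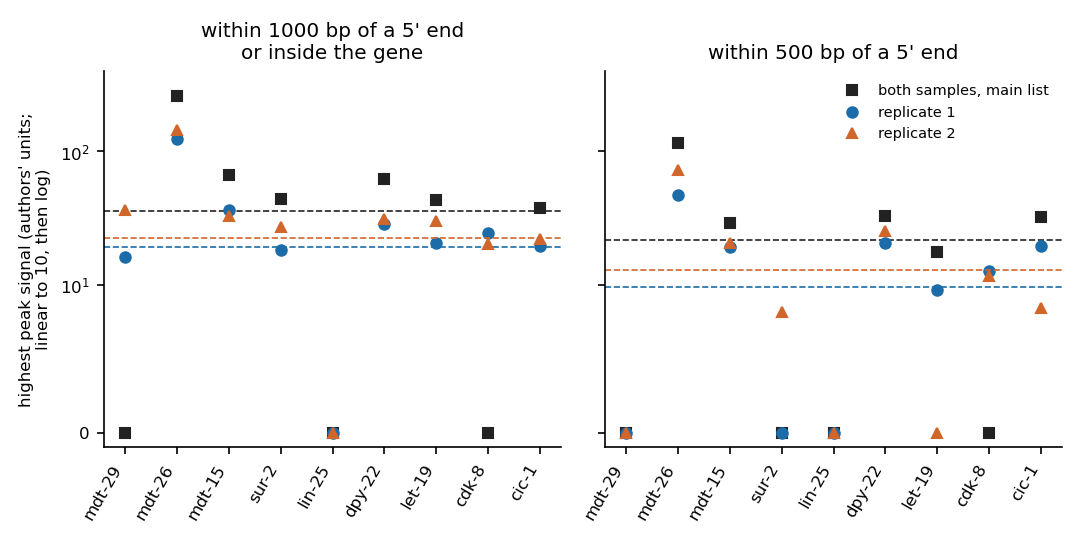
Highest ranked signal (y axis, the authors' units, linear to 10 and then log) of each member in the main list, replicate 1 and replicate 2, in the whole region (left) and within 500 bp of a 5' end (right). A point at 0 is a gene with no listed peak. Dashed lines are medians over all genes, with genes without a peak counted as 0. In both panels mdt-26 is above the other members in each list drawn.

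Outside the genes, the thresholded main peak nearest to mdt-15 lay 236 bp past its 3' end, with a signal of 77.6, so close to the gene but not in its region. The nearest lay 5592 bp past the 3' end of let-19, 9057 bp upstream of mdt-29, 12562 bp upstream of lin-25 and 17403 bp upstream of cic-1. For sur-2, dpy-22 and cdk-8 it lay 17635, 66542 and 81088 bp past the 3' end. Peaks at or above the score minimum that the authors took out of the thresholded lists fell in the region of 0 members in each list.

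Other genes of transcription were counted the same way. Of the 19 other Mediator genes matched, 1 had a thresholded main peak, mdt-4, whose signal of 107.9 lay in an intron at 1347 bp, a site shared with ZK546.19, and averaged 59.2 ± 23.4 over the samples (SD, n = 2). Of 38 genes for RNA polymerase II subunits and general factors, 1 had one, rpb-11, 108 bp upstream, with 41.1 in replicate 1 and 43.8 in replicate 2, shared with W01G7.4. Of 20 partner genes of the tail and kinase module subunits, 2 had one, pqm-1 and skn-1. The peak of pqm-1, a zinc finger factor, lay in a coding exon with a main signal of 177.2, and pqm-1 had a peak in every thresholded list. For skn-1, the oxidative stress factor, 1 of its 2 such peaks had 79.7, with 49.1 in replicate 1 and 29.2 in replicate 2. The conservative and replicate 2 thresholded lists held no skn-1 peak. Beside the members' count of 1 of 9 and these 3 counts stands the share of 6.43% over all genes, which is not matched for region length. For genes with regions of 4 to 14 kb, as the members have, the share was 8.86%. Region lengths of the other 3 lists were not compared.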

How the data were processed

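ChIP-seq of tagged MDT-29 was done in 2 biological replicates, sonicated to 200 to 800 bp per the labels. Notes deposited alongside say that the main and conservative lists were made from both samples, and 1 list from each sample alone; the aligner and peak caller are not given in the sources used here. The signal, deposited for each peak, is a strength of unknown scaling, so it was used within lists and as mean ± SD over samples without a test. The score, deposited by the authors, is a scaled form of the IDR, and −log10 of the global IDR was deposited with the ranked lists. Depth is unknown, and an SD over 2 samples includes any difference in scale.

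Coordinates are WBcel235 (ce11), Ensembl release 115, counted from 1. A summit inside a gene or within 1000 bp of a transcript 5' end was counted for that gene, and each list was compared with all 19973 nuclear protein-coding genes. Signal of a sample at a main peak is the highest of its ranked peaks that overlap the main one. Alternatives were other windows, peak overlap by 1 bp, the conservative and single-sample lists, and global IDR limits of 0.05 and 0.001. All members were named, and of the other lists every gene with a thresholded main peak. Members, lists and tests were chosen with earlier results of these data known. Counting was tested on simulated data, in Python 3.11.15 with numpy 2.4.6, pandas 2.3.3 and scipy 1.17.1.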

Additional observations from a re-analysis of the deposited data

How the results depend on the processing

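The count of members with a thresholded peak was 1, mdt-26, in the main list and with the conservative list, 5' end windows of 1000, 500 or 250 bp, peak overlap, each single-sample list and global IDR limits of 0.05 or 0.001 on the main ranked list. It was 3 in the conservative ranked list at 0.05, an alternative chosen after seeing the data. The share of all genes, 6.43%, ranged from 3.06% to 4.21% with 1 sample, was 3.57% at 500 bp and 2.12% at 250 bp, 11.5% at a global IDR of 0.05 in either ranked list and 2.94% at 0.001.

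The signal of the mdt-26 intron peak was 258.8 with both samples and 123.8 to 143.9 with 1. That of its 5' end peak was 115.9 with both and 46.9 to 72.4 with 1. How joining the samples changes the scale of signal was not tested.

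Other Mediator genes, 1 in the main list, numbered 0 to 1 with 1 sample (0 without replicate 1), 0 in each 5' end window, and 2 and 3 at 0.05 in the main and conservative ranked lists. RNA polymerase II and general factor genes, 1 in the main list, numbered 2 in the conservative list, 0 in each single-sample list, 5 and 7 at 0.05 in the 2 ranked lists and 0 at 0.001. Partner genes, 2 in the main list, numbered 1 in the conservative list, 1 to 3 with 1 sample, 1 within 1000 bp and 0 within 500 or 250 bp, 7 and 6 at 0.05 and 1 at 0.001. The cause of these shifts was not tested.

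No paired analysis was possible because there was 1 group of 2 samples. Reads and depth are unknown here, so an unlisted peak at lin-25, or in the main list at mdt-29 and cdk-8, is not a measured absence of MDT-29.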
